A study of Mus musculus with 71 samples.

Results

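The genes described here are the 6 that encode the E proteins Tcf3 (E2A), Tcf4 (E2-2) and Tcf12 (HEB) and the Id proteins Id1, Id2 and Id3. They were taken by gene symbol with no filter on measured values, although earlier results of these data were known when they were chosen. All 6 were present both among the 25579 genes of the Pax5 experiments and among the 24420 genes of the lymphoid progenitor samples. E proteins are basic helix-loop-helix transcription factors that bind DNA as dimers at the E-box, a motif of the letters CANNTG. Id proteins share the helix-loop-helix region but lack the basic region that contacts DNA, so that an E protein paired with an Id protein cannot bind. In lymphoid progenitors E proteins act with Ebf1, Foxo1 and Pax5 in the B cell lineage and with Notch signals in the T cell lineage, whereas Id2 is known for its role in innate lymphoid cells and Id3 as a gene induced by signals from the antigen receptor and its precursors. Tcf4 is also the E protein on which plasmacytoid dendritic cells depend.

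RNA was measured by sequencing of poly(A) RNA in 48 samples of C57BL/6 mice, 31 of them from bone marrow of Pax5 genotypes and 17 from wild-type LMPPs and thymocytes and from Rag2−/− thymocytes. Pax5 is the transcription factor that commits lymphoid progenitors to the B cell lineage, and the study asked what its separate domains contribute. The Pax5 +/+ pro-B cells were represented by 5 samples and every other Pax5 genotype by 2. The ∆OP allele lacks the octapeptide, the ∆HD allele the partial homeodomain and the ∆OP,HD allele both, and all were studied as homozygotes. The ∆CRD1, ∆CRD2 and ∆CRD1,2 alleles lack the first, the second or both C-terminal regulatory domains, and were studied as homozygotes and as hemizygotes, in which the other Pax5 allele was a null allele (∆CRD1/−, ∆CRD2/− and ∆CRD1,2/−). The ∆/∆ progenitors came from Vav-Cre Pax5 fl/fl mice, in which Cre driven by the Vav promoter deletes Pax5 in hematopoietic cells from the stem cell on. A separate experiment compared Vav-Cre Pax5 fl/+ pro-B cells (+/∆), Vav-Cre Pax5 fl/fl progenitors (∆/∆) and Vav-Cre Pax5 Prd/fl progenitors (Prd/∆), where Prd is an allele reduced to the paired domain, the DNA-binding domain of Pax5. In this experiment all mice carried Vav-Cre, and the control kept only 1 intact Pax5 allele. The labels are written with D for ∆ and fl for the floxed allele.

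The pro-B cells were sorted with a gate for pro-B cells, whereas ∆CRD1,2/− and ∆/∆ cells were sorted as Kit-high B220+ Ly6D+ cells without other lineage markers. The progenitors of the Prd experiment are labelled as sorted with an alternative gate, so that genotype and gate cannot be told apart in the comparisons of ∆CRD1,2/−, ∆/∆ and Prd/∆ cells with control pro-B cells. The LMPPs, lymphoid-primed multipotent progenitors of the bone marrow, were represented by 2 samples, the thymocyte stages DN1, DN2a and DN2b by 3 each, and DN3a, DN3b and Rag2−/− DN3a cells by 2 each. The DN stages are successive CD4-negative and CD8-negative precursors of T cells. DN3a cells rearrange Tcrb, DN3b cells have passed the checkpoint at which a rearranged chain is tested, and Rag2−/− cells cannot rearrange. The labels do not say whether replicate samples came from separate mice, so that p-values measure the spread between these samples, which may be technical in part.

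Library depth in the Pax5 experiments was 10018678 to 43784791 reads assigned to genes, and it is not known for the lymphoid samples. Values are TPM, a share of all transcripts that is corrected for gene length, so that levels of different genes can be compared. Pax5 transcripts were counted over the whole gene and were higher in ∆/∆ progenitors (1609 to 1697 TPM) than in +/+ cells (342 to 524 TPM), so that this count does not check the deletions. The same holds for Rag2 in Rag2−/− DN3a cells. The sum of 6 LMPP markers was 95.8 to 125 TPM in +/+ cells and 279 to 454 TPM in ∆CRD1 mutant cells. It was 573 to 697 TPM in ∆CRD1,2 mutant cells and 681 to 821 TPM in ∆/∆ progenitors of the first experiment. In the Prd experiment +/∆ cells were at 83.32 to 96.76 TPM. There ∆/∆ progenitors were at 567.7 to 579.2 TPM and Prd/∆ progenitors at 585.9 to 638.1 TPM, and both overlapped the ∆CRD1,2 mutant cells. The list includes Flt3, which the paper names as a Pax5-repressed gene, so that the sum does not measure LMPP-like cells alone. Against control cells the sum was higher in every result on the loss of CRD1, of both CRDs or of Pax5 below. Its part in these results was not tested. In bulk samples such as these, fewer cells of a type and less RNA per cell cannot be told apart.

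The genes lie on separate chromosomes. In the GENCODE M21 annotation of GRCm38, Tcf3 spans chr10:80409514-80433647 and Tcf12 chr9:71842688-72111871, both on the minus strand. The Id genes are short: Id1 spans chr2:152736251-152737410 and Id3 chr4:136143497-136145755 on the plus strand, and Id2 chr12:25093799-25097140 on the minus strand. No annotated exon of another gene overlaps an exon of any of the 6. The sequences before the transcription start are shown for Tcf3 and Id2, since their transcripts moved in opposite directions when Pax5 was lost. They are RefSeq promoter windows of GRCm38.p6 on the minus strand, given 5′ to 3′ without the bases that GENCODE counts as exon, and capitals mark the letters CANNTG, searched on both strands. The Tcf3 window is chr10:80433648-80433885 and the Id2 window chr12:25096254-25096342. The former begins 1 base beyond the annotated end of its gene, and the latter lies in an intron of a longer annotated Id2 transcript.
Tcf3: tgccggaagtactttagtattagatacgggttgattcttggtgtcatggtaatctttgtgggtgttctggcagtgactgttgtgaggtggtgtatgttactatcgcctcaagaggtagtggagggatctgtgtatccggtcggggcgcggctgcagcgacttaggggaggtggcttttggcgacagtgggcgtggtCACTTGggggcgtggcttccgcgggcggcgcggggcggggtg
Id2: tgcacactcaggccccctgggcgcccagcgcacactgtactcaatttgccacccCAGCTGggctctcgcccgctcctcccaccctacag
Each holds 1 CANNTG, read CACTTG in Tcf3, 54 bases before the RefSeq start, and CAGCTG in Id2, 196 bases before it. The 250 bases before the RefSeq start of Id3 hold none. Of 32851 RefSeq promoter windows of 250 bases, 66.2% hold CANNTG and 13% hold CAGCTG, so that a match is common and is a description only. Promoter windows were available for Tcf3, Tcf12, Id2 and Id3.

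In +/+ pro-B cells 1 E gene and 1 Id gene made up nearly all of their families. Tcf3 was at 1298, 1371 and 1714 TPM in the 3 libraries of 50-nucleotide reads and at 981 and 1064 TPM in the 2 libraries of 100-nucleotide reads. It contributed 83.4 to 88.6% of the summed E transcripts. Tcf4 was at 94.8 to 116 TPM and 66.4 to 72.0 TPM in the same sets of libraries, and Tcf12 at 97.6 to 145 TPM and 70.7 to 99.1 TPM. The levels of Tcf3 and Tcf4 did not overlap between the sets, which differ in read length and sequencing series, although all reads were trimmed to the same length. In the fit every mutant was therefore set against the +/+ libraries of its own read length. Id3 was at 433, 528, 613, 619 and 681 TPM, which was 97.3 to 98.6% of the summed Id transcripts. Id2 was at 5.21 to 7.94 TPM and Id1 at 3.37 to 6.95 TPM, from 33 to 93 reads a library.

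**Figure D1:**
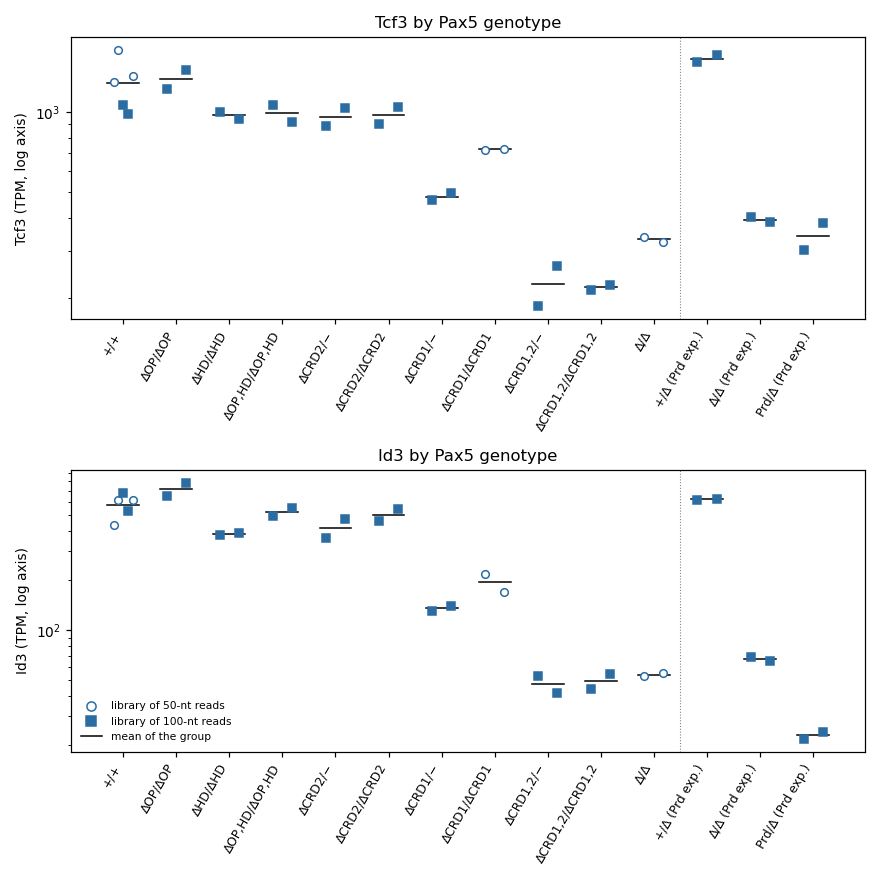
Tcf3 (top) and Id3 (bottom) in every library by Pax5 genotype, in TPM on a log axis, with open circles for libraries of 50-nucleotide reads, filled squares for libraries of 100-nucleotide reads and a line at the mean of each group. The dotted line sets the Prd experiment apart. Both genes step down from +/+ (981 to 1714 TPM for Tcf3 and 433 to 681 TPM for Id3) through the ∆CRD1 genotypes to the ∆CRD1,2 genotypes and ∆/∆, and Id3 is lowest in Prd/∆ (21.8 and 24.1 TPM).

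Loss of the central domains did not move any of the 6 genes past the threshold, an adjusted p below 0.05 in limma's moderated test with Benjamini-Hochberg adjustment over all genes tested. The question of this comparison is what the octapeptide and the partial homeodomain contribute to expression. In ∆OP/∆OP cells 0 of 6 genes were called (all genes, 0.485%), with 1 at an unadjusted p below 0.05, 0 by edgeR and 1 by DESeq2. In ∆HD/∆HD cells 0 of 6 were called (all genes, 0.639%), with 2 at an unadjusted p below 0.05, 0 by edgeR and 1 by DESeq2. In ∆OP,HD/∆OP,HD cells 0 of 6 were called (all genes, 1.22%), with 0 at an unadjusted p below 0.05 and 0 by either count test.

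Tcf3 was the gene behind the ∆OP/∆OP counts. It was at 1222 and 1444 TPM there, above both +/+ libraries of the same read length, with a log2 fold change of 0.38 ± 0.11 (SE, adjusted p = 0.149 in limma). Id3, which was at 379 and 389 TPM in ∆HD/∆HD cells, was below every +/+ library, with a log2 fold change of -0.64 ± 0.14 (SE, adjusted p = 0.121 in limma). DESeq2 called Id3 as lower there (log2 fold change of -0.69, adjusted p = 0.00213 in DESeq2). The 2 genes at an unadjusted p below 0.05 in limma in that genotype were Id1 and Id3. In ∆OP,HD/∆OP,HD cells Id3 was at 490 and 551 TPM and overlapped the +/+ range. Id1 was at 9.12 and 9.51 TPM in ∆OP/∆OP cells, above all 5 +/+ libraries, and at 2.58 and 0.505 TPM in ∆HD/∆HD cells, the latter from 6 reads. The 95% intervals of the log2 fold changes for Tcf4 and Tcf12 lay between -0.40 and 0.38 in all 3 genotypes. The interval of Id2 was much wider, from -1.83 to 1.38 over the 3 genotypes, and its 2 libraries in ∆OP,HD/∆OP,HD cells were at 4.27 and 10.5 TPM. Myeloid markers, summed over 9 genes, were at 3034 to 3304 TPM in ∆OP/∆OP and 345 to 1182 TPM in ∆HD/∆HD cells. Their sum was 439 to 4162 TPM in ∆OP,HD/∆OP,HD cells and 462 to 5022 TPM in +/+ cells. The part of this variation in the values of Id1 and Id2 was not tested.

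Loss of CRD2 alone likewise left all 6 genes below the threshold of the test. In ∆CRD2/− cells 0 of 6 genes were called (all genes, 0.967%), with 1 at an unadjusted p below 0.05, and in ∆CRD2/∆CRD2 cells 0 of 6 (all genes, 0.115%), with 0 at an unadjusted p below 0.05. EdgeR and DESeq2 called 0 members in both. The 1 gene was Id3, at 359 and 473 TPM in ∆CRD2/− cells and at 457 and 543 TPM in ∆CRD2/∆CRD2 cells, with log2 fold changes of -0.54 ± 0.21 and -0.27 ± 0.21 (SE). Tcf3 was at 887 to 1043 TPM over the 4 libraries, and its 95% intervals ran from -0.44 to 0.26 and from -0.42 to 0.28 on the log2 scale. Id2 was at 14.2 and 4.18 TPM in the 2 ∆CRD2/∆CRD2 libraries, the largest gap between replicates of any Pax5 genotype for this gene. Both CRD2 genotypes also contain a library with high myeloid markers, whose sum over 9 genes ranged from 843 to 10980 TPM in ∆CRD2/− and from 446 to 5320 TPM in ∆CRD2/∆CRD2 cells, beside 462 to 5022 TPM in +/+ cells. The part of this variation in the values of Id2 was not tested.

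Loss of CRD1 lowered Tcf3 and Id3 in both genotypes. In ∆CRD1/− cells 2 of 6 genes were called (all genes, 10.9%) and both fell. In ∆CRD1/∆CRD1 cells 3 of 6 were called (all genes, 7.75%) and all 3 fell. The +/+ controls are shared by these comparisons and by those that follow up to the Prd experiment, so their values are given side by side and not counted as independent.

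Tcf3 was at 468 and 495 TPM in ∆CRD1/− cells and at 723 and 730 TPM in ∆CRD1/∆CRD1 cells, all below the lowest of the +/+ libraries. It fell by 1.09 ± 0.16 on the log2 scale (SE, 2.12-fold, adjusted p = 0.000533 in limma) in ∆CRD1/− and by 1.00 ± 0.15 (2.00-fold, adjusted p = 0.000766 in limma) in ∆CRD1/∆CRD1 cells, each against +/+ libraries of its read length. Id3 was at 130.0 and 141 TPM in ∆CRD1/− cells and at 170.1 and 219 TPM in ∆CRD1/∆CRD1 cells. It fell by 2.15 ± 0.21 on the log2 scale (4.43-fold, adjusted p = 1.16e-05 in limma) and by 1.5 ± 0.19 (2.84-fold, adjusted p = 0.000206 in limma). No library of either genotype reached the lowest +/+ library for this gene.

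Tcf4, which was at 73.5 and 76.0 TPM in ∆CRD1/∆CRD1 cells beside 94.8 to 116 TPM in the +/+ libraries of the same read length, fell by 0.53 ± 0.14 on the log2 scale (SE, adjusted p = 0.0371 in limma). This call was lost without any 1 of 4 libraries, both of ∆CRD1/∆CRD1 and replicates 1 and 2 of +/+ (adjusted p = 0.105 to 0.252 in limma), and without the read-length term, where the value was -0.27 (adjusted p = 0.563 in limma). In ∆CRD1/− cells Tcf4 was at 49.98 and 53.3 TPM, with a log2 fold change of -0.42 ± 0.16 (adjusted p = 0.112 in limma). Tcf12 was at 99.8 and 103 TPM in ∆CRD1/− cells and at 88.3 and 95.8 TPM in ∆CRD1/∆CRD1 cells, and did not pass the test (log2 fold changes of 0.28 and -0.36). Id2 was at 6.59 to 8.93 TPM over the 4 libraries and did not pass the test. Id1 was detected with 7 and 8 reads in the 2 ∆CRD1/− libraries and with 14 and 16 reads in the ∆CRD1/∆CRD1 libraries. Limma called it in neither (adjusted p = 0.150 and 0.512), whereas DESeq2 called it as lower in ∆CRD1/− cells (adjusted p = 0.00815), as did limma with a pseudocount of 1 (adjusted p = 0.0116). DESeq2 also called Tcf4 there (adjusted p = 0.0109). The sum of 8 markers of plasmacytoid dendritic cells was 668 to 707 TPM in ∆CRD1/∆CRD1 and 492.9 to 508 TPM in ∆CRD1/− cells, beside 837 to 1169 TPM in +/+ cells. Of these markers 5 of 8 were called as lower in ∆CRD1/∆CRD1 cells (all genes, 4.11% lower). In ∆CRD1/− cells 3 were lower and 1 higher (all genes, 5.88% lower and 5.05% higher). The part of these markers in the level of Tcf4 was not tested.

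Loss of both CRDs lowered 2 E genes and 2 Id genes. In ∆CRD1,2/− cells 4 of 6 genes were called (all genes, 23.5%) and all 4 fell, and in ∆CRD1,2/∆CRD1,2 cells 4 of 6 (all genes, 24.1%) fell. They were Tcf3, Tcf4, Id1 and Id3 in both genotypes. Tcf3 was at 186 and 265 TPM in ∆CRD1,2/− cells and at 215 and 225 TPM in ∆CRD1,2/∆CRD1,2 cells, the lowest levels of this gene in any Pax5 genotype. It fell by 2.20 ± 0.16 (SE, 4.60-fold, adjusted p = 4.29e-07 in limma) and by 2.21 ± 0.16 (4.64-fold, adjusted p = 4.40e-07 in limma) on the log2 scale. Tcf4 was at 37.3 and 42.8 TPM and at 38.6 and 40.9 TPM in the same genotypes, also below all other Pax5 libraries, and fell by 0.79 ± 0.16 and 0.80 ± 0.16 (adjusted p = 0.00220 and 0.00204 in limma). The markers of plasmacytoid dendritic cells summed to 561 to 608 TPM and 513 to 551 TPM there, with 2 higher and 2 lower, and 1 higher and 2 lower, of 8, and their part in the fall of Tcf4 was not tested. Of all genes 9.3 and 9.95% were higher and 14.2 and 14.1% lower in these genotypes. Tcf12 was at 64.0 to 72.1 TPM over the 4 libraries and was not called, with log2 fold changes of -0.30 and -0.34 (SE 0.18 each). Without the read-length term these were -0.60 and -0.64, and both were called (adjusted p = 0.0230 and 0.0169 in limma).

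Id3 was at 41.5 and 52.7 TPM in ∆CRD1,2/− cells and at 44.2 and 54.3 TPM in ∆CRD1,2/∆CRD1,2 cells. All 4 values were far below the 433 to 681 TPM in +/+ cells, and the fall was 12.8-fold and 12.2-fold (log2 fold changes of -3.68 ± 0.21 and -3.61 ± 0.21, SE, adjusted p = 3.57e-08 and 6.62e-08 in limma). Id1 yielded 4 and 0 reads in the 2 ∆CRD1,2/− libraries and 17 and 0 reads in the ∆CRD1,2/∆CRD1,2 libraries, beside 33 to 93 reads in +/+ cells. It was called as lower in each (adjusted p = 0.0113 and 0.0364 in limma), but the size of the change depends on the added constant. The call was lost without +/+ replicate 4 or ∆CRD1,2/− replicate 2 in ∆CRD1,2/− cells, and without +/+ replicate 3 or 4 or ∆CRD1,2/∆CRD1,2 replicate 2 in ∆CRD1,2/∆CRD1,2 cells (adjusted p = 0.0636 to 0.371 in limma). Id2 was at 5.93 and 10.4 TPM in ∆CRD1,2/− and at 4.21 and 7.96 TPM in ∆CRD1,2/∆CRD1,2 cells, which overlapped the +/+ range, with 95% intervals of the log2 fold change from -0.78 to 1.26 and from -1.21 to 0.83.

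The step from loss of CRD1 to loss of both CRDs was tested on its own and lowered Tcf3 and Id3 once more. Between the hemizygotes ∆CRD1,2/− and ∆CRD1/− 2 of 6 genes were called (all genes, 3.57%), with a fall of Tcf3 by 1.11 ± 0.16 (SE, adjusted p = 0.00142 in limma) and of Id3 by 1.53 ± 0.21 (adjusted p = 0.000919 in limma) on the log2 scale. Between the homozygotes 2 of 6 were called (all genes, 1.56%), with a fall of Tcf3 by 1.22 ± 0.22 (adjusted p = 0.0144 in limma) and a change of Id3 of -2.11 ± 0.28 (adjusted p = 0.00168 in limma). The homozygous libraries of ∆CRD1 and ∆CRD1,2 differ in read length, and the call for Tcf3 was lost without any 1 of these 4 libraries (adjusted p = 0.0604 to 0.0825 in limma). The step itself did not differ detectably between hemizygotes and homozygotes, with 0 of 6 genes called in the interaction test (all genes, 0.00722%), 0 at an unadjusted p below 0.05 and 0 by edgeR or DESeq2. The interaction for Id3 was 0.58 ± 0.35 (SE) on the log2 scale, with a 95% interval from -0.18 to 1.33.

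**Figure D2:**
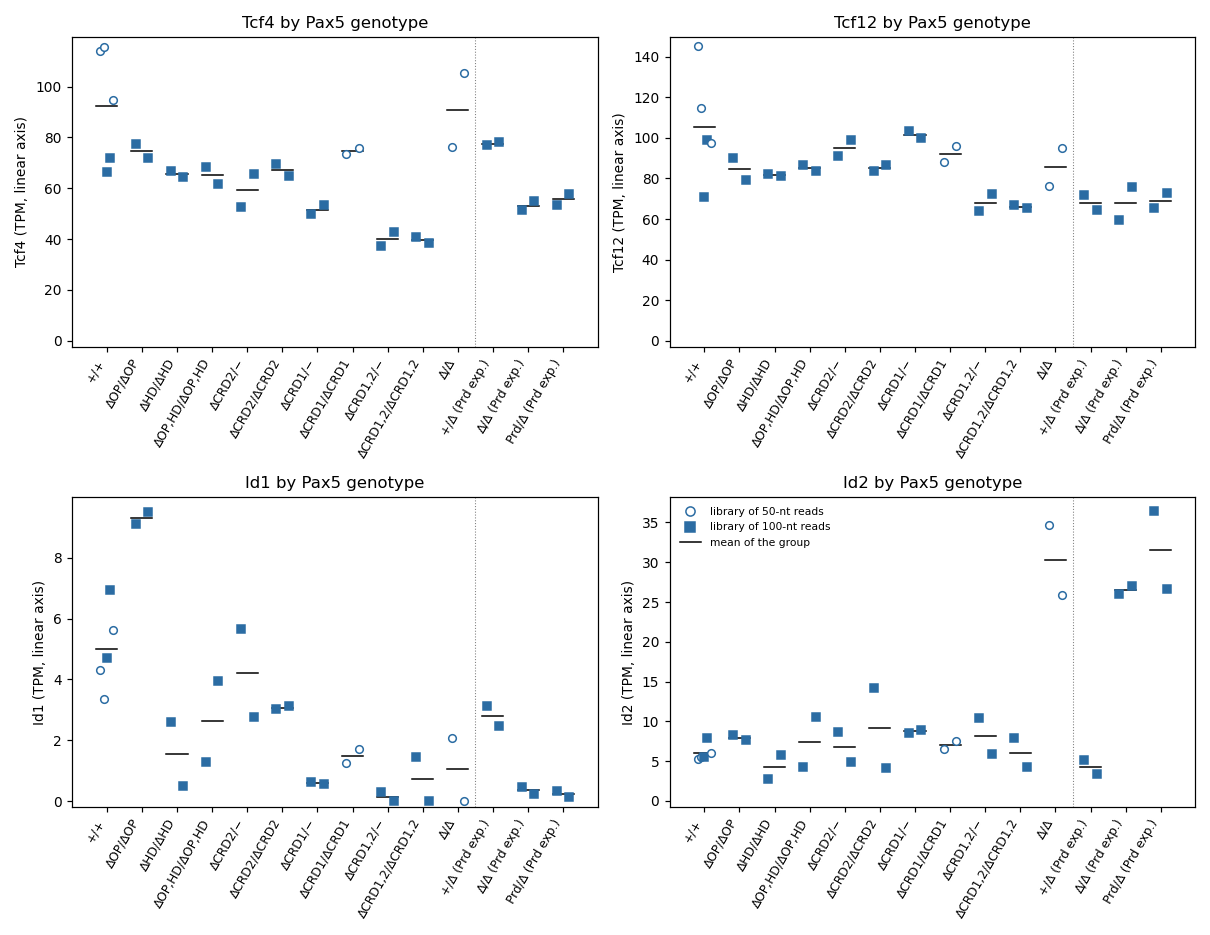
Tcf4, Tcf12, Id1 and Id2 in every library by Pax5 genotype, in TPM on linear axes that start just below 0, with open circles for libraries of 50-nucleotide reads, filled squares for libraries of 100-nucleotide reads and a line at the mean of each group. Id2 stands at 25.9 to 36.5 TPM in the 6 progenitor libraries of ∆/∆ and Prd/∆ and at no more than 14.2 TPM in all others, and Tcf4 is lowest in the ∆CRD1,2 genotypes.

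Loss of Pax5 in ∆/∆ progenitors lowered Tcf3 and Id3 and raised Id2. Against +/+ pro-B cells 5 of 6 genes were called (all genes, 34.9%), 1 higher and 4 lower. Id2 was at 25.9 and 34.7 TPM, above every +/+ library, and was 5.27-fold higher (log2 fold change of 2.4 ± 0.43, SE, adjusted p = 0.000613 in limma). Tcf3 was at 326 and 339 TPM and fell by 2.12 ± 0.15 on the log2 scale (4.36-fold, adjusted p = 8.51e-08 in limma). Id3 was at 53.0 and 54.5 TPM and fell by 3.35 ± 0.19 (10.2-fold, adjusted p = 1.25e-08 in limma).

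The other 2 calls were less firm. Tcf12 was at 76.1 and 94.95 TPM, within the +/+ range of 70.7 to 145 TPM over both read lengths, and its fall of 0.47 ± 0.16 on the log2 scale (SE, adjusted p = 0.0392 in limma) was lost without +/+ replicate 1 or 2 or ∆/∆ replicate 1 (adjusted p = 0.0635 to 0.303 in limma) and without the read-length term (-0.27, adjusted p = 0.299 in limma). Id1 gave 15 reads in 1 library and 0 in the other. It was called as lower (adjusted p = 0.0396 in limma) and was not called by edgeR (adjusted p = 0.162) or DESeq2 (adjusted p = 0.0975), nor without ∆/∆ replicate 2 or any 1 of +/+ replicates 1, 2, 3 and 5 (adjusted p = 0.0506 to 0.531 in limma). Tcf4 was at 76.2 and 105 TPM and was not called, with a log2 fold change of -0.26 ± 0.14. Without ∆/∆ replicate 2, the library with the higher value, Tcf4 was called (log2 fold change of -0.50, adjusted p = 0.0270 in limma). Siglech, 1 of 8 listed markers of plasmacytoid dendritic cells, was at 70.6 and 195 TPM in these 2 libraries and at 0.551 to 13.9 TPM in +/+ cells. The sum of the 8 markers was 1237 to 2003 TPM beside 837 to 1169 TPM. Above 1 TPM in every library were 8 of the 8 in ∆/∆ progenitors and 4 in +/+ cells. The part of such cells in the levels of Tcf4 and Id2 was not tested.

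Cells whose Pax5 lacked both CRDs and cells without Pax5 were sorted with like gates, and Id2 had the largest log2 difference between them among the 6 genes. In ∆CRD1,2/− against ∆/∆ progenitors 0 of 6 genes were called (all genes, 3.65%), with 2 at an unadjusted p below 0.05, 0 by edgeR and 1 by DESeq2. Id2 was at 5.93 and 10.4 TPM in ∆CRD1,2/− cells and at 25.9 and 34.7 TPM in ∆/∆ progenitors, with no overlap. Its log2 fold change was -2.16 ± 0.64 (SE, adjusted p = 0.0887 in limma) and its adjusted p ranged from 0.0119 to 0.247 over the alternatives, below the threshold in 4 of 14. The 2 genotypes differ in read length too, 100 and 50 nucleotides. Tcf4 was at 37.3 and 42.8 TPM in ∆CRD1,2/− cells and at 76.2 and 105 TPM in ∆/∆ progenitors. Its log2 fold change was -0.52 ± 0.21 (SE, adjusted p = 0.215 in limma), and without the read-length term it was called (-1.16, adjusted p = 0.00444 in limma). Tcf3 and Id3 did not pass the test, with log2 fold changes of -0.08 (95% interval from -0.55 to 0.39) and -0.33 (95% interval from -0.94 to 0.28).

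The Prd experiment gave the same contrast in samples that share no library with those above. In ∆/∆ progenitors against +/∆ pro-B cells 5 of 6 genes were called (all genes, 39.9%), 1 higher and 4 lower. Id2 rose from 3.41 and 5.10 TPM to 26.0 and 27.0 TPM (6.23-fold, log2 fold change of 2.64 ± 0.23, SE, adjusted p = 0.000319 in limma). Tcf3 fell from 1541 and 1640 TPM to 386 and 403 TPM (4.03-fold, adjusted p = 8.82e-05 in limma), and Id3 from 616 and 627 TPM to 65.3 and 68.8 TPM (9.26-fold, adjusted p = 1.26e-05 in limma). All libraries of the 2 groups were far apart for these 3 genes.

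Tcf4 fell from 76.9 and 78.0 TPM to 51.3 and 54.9 TPM (1.46-fold, log2 fold change of -0.54 ± 0.08, SE, adjusted p = 0.00310 in limma). Tcf12 was at 64.3 and 71.6 TPM in +/∆ cells and at 59.7 and 75.8 TPM in ∆/∆ progenitors, and its log2 fold change of -0.01 ± 0.13 (adjusted p = 0.955 in limma) had a 95% interval from -0.33 to 0.31. Siglech was at 17.3 and 23.5 TPM in these ∆/∆ progenitors and at 0.0564 and 0.385 TPM in +/∆ cells. The sum of the 8 markers of plasmacytoid dendritic cells went the other way, at 720.0 to 853 TPM beside 883 to 926 TPM. Siglech therefore does not speak for the whole list, of which 6 and 5 markers were above 1 TPM in every ∆/∆ and +/∆ library. The part of such cells in the level of Tcf4 was not tested. Id1 was detected with 33 and 43 reads in +/∆ cells and with 4 and 8 reads in ∆/∆ progenitors and was called as lower (adjusted p = 0.00744 in limma), a call lost without +/∆ replicate 1 (adjusted p = 0.0593 in limma).

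The effect of losing Pax5 did not differ detectably between both experiments for any of the 6 genes. The test of the difference called 0 of 6 (all genes, 0.774%), with 0 at an unadjusted p below 0.05 and 0 by edgeR or DESeq2. The estimate for Tcf12 was -0.46 ± 0.24 (SE) on the log2 scale with a 95% interval from -0.96 to 0.05. For Tcf3 the interval was from -0.57 to 0.34, for Id3 from -0.68 to 0.41 and for Id2 from -1.51 to 1.03. The controls differ in these comparisons, since +/∆ cells have 1 Pax5 allele and +/+ cells have both.

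With an isolated paired domain Id2 was higher and Tcf3, Tcf4, Id1 and Id3 were lower than in control cells, and Id3 was lower than without Pax5. In Prd/∆ progenitors against +/∆ pro-B cells 5 of 6 genes were called (all genes, 40.7%), 1 higher and 4 lower. Id2 was at 26.6 and 36.5 TPM (7.32-fold higher, adjusted p = 0.000219 in limma), Tcf3 at 302 and 385 TPM (4.66-fold lower, adjusted p = 6.06e-05 in limma) and Tcf4 at 53.6 and 57.8 TPM (1.39-fold lower, adjusted p = 0.00533 in limma). The call of Tcf4 was lost without either +/∆ library (adjusted p = 0.0527 and 0.0608 in limma), and the summed markers of plasmacytoid dendritic cells were at 696 to 851 TPM in Prd/∆ beside 883 to 926 TPM in +/∆ cells. Id3 was at 21.8 and 24.1 TPM, 27.0-fold below +/∆ cells (adjusted p = 5.46e-06 in limma). Id1 gave 4 and 2 reads and was called as lower (adjusted p = 0.00395 in limma).

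Against ∆/∆ progenitors of the same experiment 1 of 6 genes was called in Prd/∆ cells (all genes, 1.97%). Id3 was at 21.8 and 24.1 TPM in Prd/∆ and at 65.3 and 68.8 TPM in ∆/∆ progenitors, a fall of 1.54 ± 0.08 on the log2 scale (SE, 2.91-fold, adjusted p = 0.00206 in limma). The groups did not overlap. The call was lost without either ∆/∆ library (adjusted p = 0.0777 and 0.0918 in limma), with the fall at 1.51 to 1.58 on the log2 scale. Tcf3, Tcf4, Tcf12 and Id2 had log2 fold changes between -0.21 and 0.23, and the widest of their 95% intervals was that of Id2, from -0.31 to 0.77. Without Prd/∆ replicate 2 Tcf3 was called as well, with a log2 fold change of -0.38 (adjusted p = 0.0364 in limma).

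**Figure D3:**
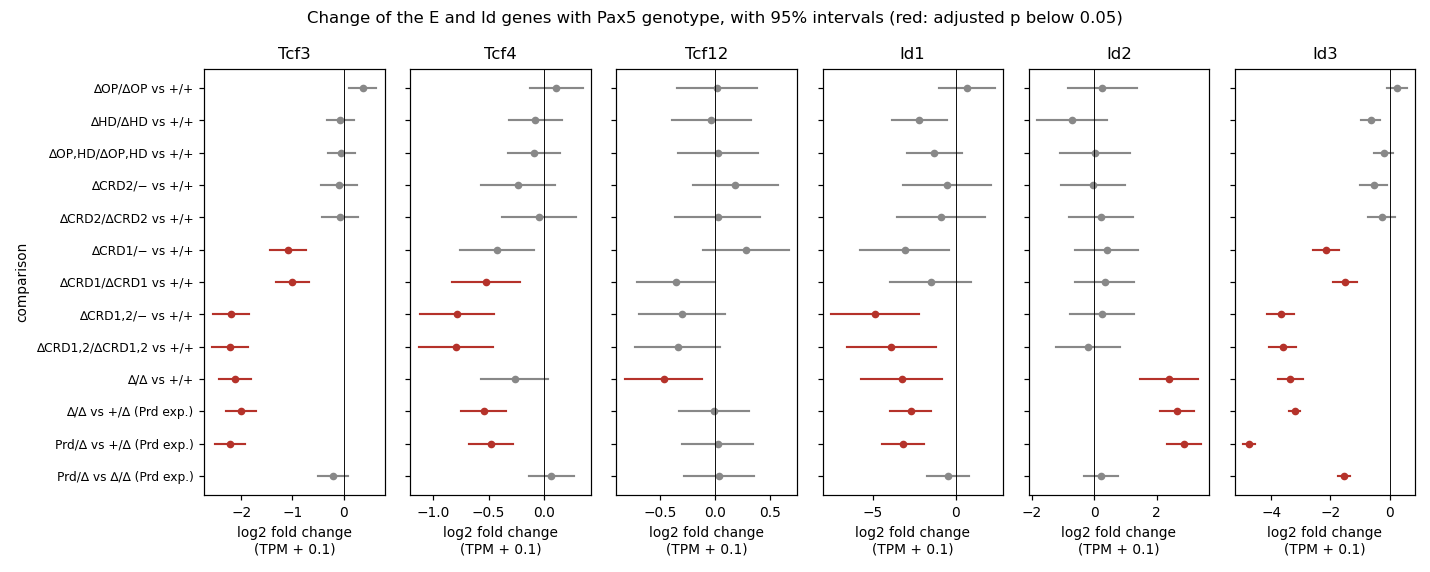
Log2 fold changes of the 6 genes, on the log2(TPM + 0.1) scale, with 95% intervals as lines, for 13 comparisons of Pax5 genotypes. Each panel has its own horizontal range, and red marks an adjusted p below 0.05 in limma. Tcf3 and Id3 are red in all comparisons with loss of CRD1, both CRDs or Pax5, Id2 is red on the right only against pro-B controls in ∆/∆ and Prd/∆, and Tcf12 lies near 0 in most rows.

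Ordered by mean level, the 14 groups of Pax5 genotypes spread 31.3-fold for Id3, 7.41-fold for Id2 and 7.22-fold for Tcf3, but 2.33-fold for Tcf4 and 1.60-fold for Tcf12. The order sets libraries of both read lengths side by side, so that a step between groups of unequal read length cannot be told apart from the difference seen between both sets of +/+ libraries. This holds for the steps of ∆CRD1/∆CRD1 and of ∆/∆ of the first experiment (50 nucleotides) to their neighbours (100 nucleotides). For Tcf3 the ranges of neighbouring groups were apart in 6 of 13 steps of that order. They separated the +/∆ cells at the top, the ∆CRD2/− cells from ∆CRD1/∆CRD1, ∆CRD1/∆CRD1 from ∆CRD1/−, the latter from the ∆/∆ progenitors of the Prd experiment, these from Prd/∆ progenitors, and the ∆/∆ progenitors of the first experiment from ∆CRD1,2/−. Set against +/+ cells of their own read length, ∆CRD1/∆CRD1 and ∆CRD1/− had falls of 2.00-fold and 2.12-fold. From ∆OP/∆OP through +/+ and ∆OP,HD/∆OP,HD to ∆CRD2/− each range overlapped that of its neighbour, although ∆OP/∆OP (1222 and 1444 TPM) did not overlap the other central and CRD2 deletions (887 to 1064 TPM). For Id3 they were apart in 6 of 13 steps as well, with ∆OP/∆OP cells at the top, overlapping ranges from +/∆ cells down to ∆HD/∆HD, and separate steps at ∆CRD1/∆CRD1, ∆CRD1/−, the ∆/∆ progenitors of the Prd experiment, those of the first experiment and, after overlapping ranges in the ∆CRD1,2 genotypes, Prd/∆. For Id2 only 1 of 13 steps was apart, the one from the 3 groups of ∆/∆ and Prd/∆ progenitors to all other genotypes. For Tcf12 the steps were apart in 2 of 13 and for Tcf4 in 3 of 13.

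The balance of the families changed with the genotype, and these sums are given as a description with no test. Per 100 TPM of E transcripts, +/+ cells held 28.4 to 57.5 TPM of Id transcripts, ∆CRD1/− and ∆CRD1/∆CRD1 cells 19.9 to 25.6 TPM, both ∆CRD1,2 genotypes 12.5 to 22.0 TPM, ∆/∆ progenitors 15.3 to 18.5 TPM over both experiments and Prd/∆ progenitors 9.86 to 13.9 TPM. The ∆CRD1 and ∆CRD1,2 genotypes, ∆/∆ and Prd/∆ did not overlap with +/+ cells. The central and CRD2 deletions, all sequenced with 100-nucleotide reads, are set beside the 2 +/+ libraries of that length, at 47.1 and 57.5 TPM. Of these ∆OP/∆OP (48.1 and 50.3 TPM) and ∆OP,HD/∆OP,HD cells (40.7 and 52.9 TPM) overlapped +/+, whereas ∆HD/∆HD (33.3 and 36.2 TPM), ∆CRD2/− (36.3 and 39.9 TPM) and ∆CRD2/∆CRD2 cells (44.7 and 46.0 TPM) were below both. The +/∆ control cells, of the same read length, were also below both, at 35.5 and 37.0 TPM, so that such values are not particular to these deletions. Within the Prd experiment ∆/∆ (17.9 and 18.5 TPM) and Prd/∆ progenitors were below both +/∆ libraries. The summed E transcripts themselves went from 1153 to 1944 TPM in +/+ cells to 288 to 380 TPM in the ∆CRD1,2 genotypes and 491 to 527 TPM in ∆/∆ progenitors. The make-up of the Id sum changed too. Id3 was 97.3 to 98.6% of the Id transcripts in +/+ cells, 82.4 to 92.8% in the ∆CRD1,2 genotypes, 59.0 to 72.2% in ∆/∆ progenitors over both experiments and 37.2 to 47.4% in Prd/∆ progenitors, where Id2 made up 52.4 to 62.2%. Tcf3 remained the largest E transcript in every Pax5 library, with 61.9 to 69.0% of the E sum in ∆/∆ progenitors of the first experiment and 64.8 to 69.7% in the ∆CRD1,2 genotypes.

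**Figure D4:**
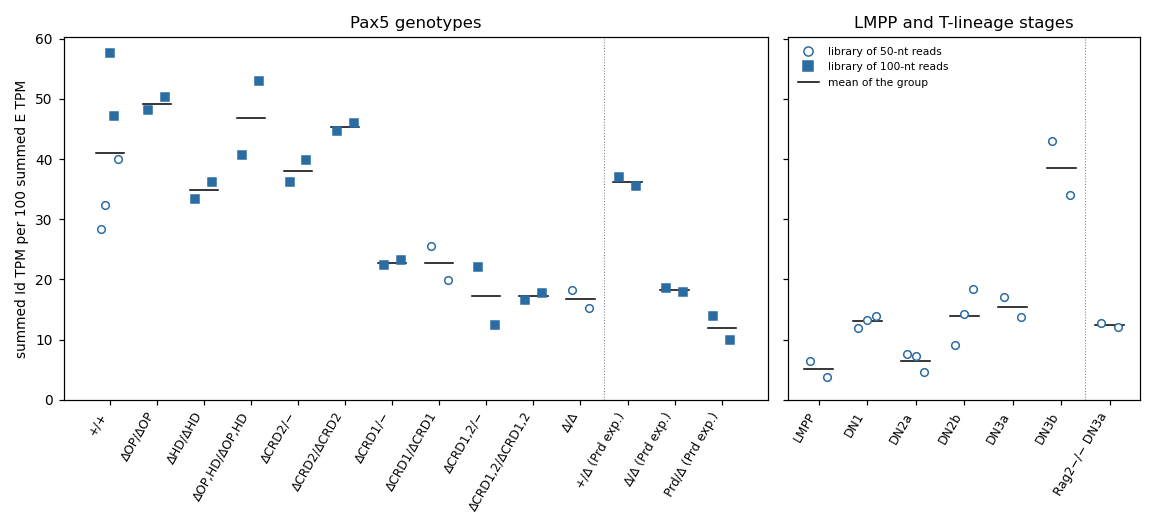
Summed TPM of Id1, Id2 and Id3 per 100 TPM of Tcf3, Tcf4 and Tcf12 in every library, for Pax5 genotypes (left) and for LMPPs and thymocyte stages (right), on a linear axis that starts at 0, with a line at the mean of each group. The values are 28.4 to 57.5 in +/+ cells and 9.86 to 13.9 in Prd/∆ progenitors. They are 3.71 to 6.43 in LMPPs, 11.9 to 13.9 in DN1, 4.59 to 7.68 in DN2a and 34.1 to 43.0 in DN3b cells.

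Genes known to respond to E proteins in the B cell lineage were mostly lower in the ∆CRD1,2 genotypes and in ∆/∆ and Prd/∆ progenitors. Of 14 such genes, 8 were lower and 1 higher in ∆CRD1,2/− cells, 9 were lower and 1 higher in ∆CRD1,2/∆CRD1,2 cells and 11 were lower and 2 higher in ∆/∆ progenitors, with median log2 fold changes of -0.83, -0.68 and -1.33 beside -0.04, 0.00 and 0.00 over all genes tested, of which 14.2, 14.1 and 16.1% were lower. Many of them are also direct targets of Pax5, and their list was not chosen to tell the factors apart. In ∆CRD1,2/− cells the calls with the largest changes included Blnk (-1.59), an adaptor of the antigen receptor, Il7r (1.25), a chain of the interleukin 7 receptor, and Foxo1 (-1.14), on the log2 scale. In ∆/∆ progenitors they included the signalling chain Cd79a (-2.85), the pre-B cell receptor component Vpreb3 (-2.74) and the recombinase subunit Rag2 (-1.73). In ∆CRD1/− and ∆CRD1/∆CRD1 cells 1 of the 14 genes was lower, beside 5.88 and 4.11% of all genes, so that this count is near that of all genes. Il7r was higher in ∆CRD1/− (1.72), and in ∆CRD2/− cells (1.36), where none of the 6 genes was called. In the Prd experiment 11 of 14 were lower in ∆/∆ and in Prd/∆ progenitors, with 2 and 1 higher. Of all genes 19.1 and 16.6% were lower and 20.8 and 24.1% higher there.

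Of 12 listed partners of E and Id proteins 9 passed the filter on low values. Of these 2 were higher and 1 lower in ∆CRD1/− cells, 0 higher and 2 lower in ∆CRD1,2/− cells, and 3 higher and 1 lower in ∆/∆ progenitors, with medians of 0.18, -0.03 and 0.09 on the log2 scale beside 0.02, -0.04 and 0.00 over all genes. In the same comparisons 5.05, 9.3 and 18.8% of all genes were higher and 5.88, 14.2 and 16.1% lower. The LIM-only proteins, which bridge E proteins and Tal1, moved in opposite directions. Lmo2 was higher (1.43 and 1.84 on the log2 scale) and Lmo4 lower (-1.40 and -1.08) in ∆/∆ progenitors of the first and the Prd experiment. Lmo4 was also lower in ∆CRD1/− (-0.87), ∆CRD1/∆CRD1 (-0.92), ∆CRD1,2/− (-1.31) and ∆CRD1,2/∆CRD1,2 cells (-1.32), and Lmo2 was lower in ∆CRD1,2/− cells than in ∆/∆ progenitors (-1.56). Tal1, a class II partner of E proteins, was higher in ∆CRD1/− (1.00) and in ∆CRD1,2/∆CRD1,2 cells (1.12), and the corepressor Cbfa2t3 was lower in both ∆CRD1,2 genotypes (-0.65 and -0.57).

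Among 10 genes known to regulate Id genes, Egr3 and Egr1 were lower in the genotypes that lack both CRDs or Pax5, with 1 exception for Egr1. Egr3, an early response factor known to induce Id3, was lower in ∆CRD1,2/− (-3.14), ∆CRD1,2/∆CRD1,2 (-2.68) and ∆/∆ cells (-4.13 and -3.82 in the first and the Prd experiment) and in Prd/∆ progenitors (-3.01), on the log2 scale. Egr1 was lower in ∆CRD1,2/− (-1.09), ∆/∆ (-2.82 and -2.78) and Prd/∆ cells (-1.81), and was not called in ∆CRD1,2/∆CRD1,2 cells (-0.67). Nfil3, a factor upstream of Id2 in innate lymphoid precursors, was higher in ∆/∆ (2.65 and 2.20) and Prd/∆ progenitors (1.74), and Zbtb16, which marks such precursors, was higher in ∆/∆ progenitors of the first experiment (2.71). Gfi1, a repressor of Id2, was lower in ∆CRD1,2/− (-1.26) and in ∆/∆ progenitors (-1.45 and -1.62), and Ets1 was lower in the same groups (-1.24, -0.92 and -1.21). Over the whole list 4 of 10 were lower and 1 higher in ∆CRD1,2/− cells, and 4 were lower and 2 higher in ∆/∆ progenitors of the first experiment, with medians of -0.44 and 0.08 on the log2 scale beside -0.04 and 0.00 over all genes. Of all genes 14.2% were lower and 9.30% higher in the former comparison, and 16.1% lower and 18.8% higher in the latter. The sum of 10 markers of innate lymphoid and NK cells was 39.3 to 84.8 TPM in ∆/∆ progenitors of the first experiment and 34.3 to 43.2 TPM in those of the Prd experiment, beside 24.6 to 42.9 TPM in +/+ and 18.9 to 21.2 TPM in +/∆ cells, and its part in the level of Id2 was not tested. Only 2 or 3 of these markers were above 1 TPM in every library of each group.

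The genes whose levels were most like those of each member were listed over the 25 libraries of the C-terminal and Prd experiments, as a description across libraries that share genotype and sequencing series. For Tcf3 they were Triobp (Pearson r of 0.984), Sh3bp5 (0.983) and Mtss1 (0.982), and for Id3 Rsph1 (0.981), Gpam (0.973) and Prep (0.970). For Id2 they were Fnip2 (0.917), Pfkfb4 (0.902) and Rinl (0.902). The r values for Tcf4 were 0.955 with Secisbp2l, 0.954 with Arf3 and 0.935 with Bptf, and those for Tcf12 were 0.913 with Spast, 0.901 with Scyl2 and 0.899 with Apc. Each was taken among 11451 genes above 5 TPM in at least 1 library.

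Along the path from LMPPs to thymocytes Tcf3 stayed the most abundant E transcript, and Tcf4 and Tcf12 changed. The question of these samples is how the genes are expressed outside the B cell lineage. The sample numbers in the labels interleave LMPPs, DN1, DN2a and DN2b cells, whereas DN3a, DN3b and Rag2−/− DN3a cells have numbers apart from these and from each other, and the labels do not say whether such numbers mark a batch. In DN1, DN2a and DN2b the labels give 1 replicate number to 2 of the 3 samples, which were counted as separate samples. Tcf3 was at 173 and 246 TPM in LMPPs, 295 to 314 TPM in DN1, 176 to 346 TPM in DN2a, 268 to 396 TPM in DN2b, 356 and 374 TPM in DN3a and 381 and 442 TPM in DN3b cells, and it was called in none of the 5 steps. Without DN2a replicate 2, which was at 346 TPM while the other 2 DN2a libraries were at 176 and 229 TPM, Tcf3 was called as lower in DN2a than in DN1 (-0.62, adjusted p = 0.0116 in limma) and higher in DN2b than in DN2a (0.65, adjusted p = 0.0154 in limma).

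The first step, from LMPPs to DN1 cells, raised both Id2 and Id3. Called were 2 of 6 genes (all genes, 18.6%), both higher. Id2 rose from 10.8 and 11.5 TPM to 33.3, 36.8 and 37.2 TPM (log2 fold change of 1.67 ± 0.23, SE, adjusted p = 0.000104 in limma), and Id3 from 1.01 and 1.75 TPM to 11.4, 12.7 and 15.4 TPM (3.20 ± 0.25, adjusted p = 6.04e-07 in limma). Neither gene overlapped between the stages. Markers of innate lymphoid and NK cells summed to 360 to 420 TPM in LMPPs and 742 to 833 TPM in DN1 cells, and their part in the rise of Id2 was not tested. Of the 10 markers 2 were above 1 TPM in every LMPP library and 4 in every DN1 library, so that such sums rest mostly on few genes.

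From DN1 to DN2a 3 of 6 genes were called (all genes, 33.7%), all lower, while the median of all genes moved by -0.18 on the log2 scale. Id2 fell to 11.2, 14.1 and 14.7 TPM (by 1.42 ± 0.20, SE, adjusted p = 0.000156 in limma), Id3 to 3.48, 3.95 and 4.48 TPM (by 1.70 ± 0.22, adjusted p = 7.43e-05 in limma) and Tcf4 from 33.7 to 40.3 TPM to 18.2 to 27.4 TPM (by 0.77 ± 0.19, adjusted p = 0.00750 in limma). The summed markers of innate lymphoid and NK cells were at 619 to 827 TPM in DN2a cells, which overlapped DN1. In DN2a 2 of the 10 markers were above 1 TPM in every library. From DN2a to DN2b 2 of 6 genes were called (all genes, 18.2%), both higher. Id3 rose to 34.8, 37.2 and 52.2 TPM (by 3.33 ± 0.22, adjusted p = 2.89e-07 in limma), and Tcf12 from 36.6, 43.0 and 58.9 TPM to 78.2, 81.3 and 112 TPM (by 0.98 ± 0.18, adjusted p = 0.00144 in limma). Id2 was at 11.1 to 17.7 TPM in DN2b and did not pass the test.

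At the step from DN2b to DN3a, the stage of Tcrb rearrangement, 5 of 6 genes were called as higher (all genes, 45.8%), with the median of all genes at 0.27 on the log2 scale. Tcf12 rose to 263 and 286 TPM (by 1.62 ± 0.20, SE, adjusted p = 2.87e-05 in limma) and Tcf4 from 17.3 to 25.8 TPM to 37.5 and 40.4 TPM (by 0.93 ± 0.21, adjusted p = 0.00313 in limma). Tcf12 contributed 39.0 to 41.9% of the E transcripts here, beside 12.7 to 13.4% in LMPPs, and Tcf3 52.2 to 55.4%. Id2 rose to 22.3 and 28.7 TPM (by 0.88 ± 0.23, adjusted p = 0.00640 in limma), a call lost without DN3a replicate 2 (adjusted p = 0.0887 in limma). The summed markers of innate lymphoid and NK cells went from 728 to 873 TPM in DN2b down to 248 to 273 TPM in DN3a cells. At each of these stages only 1 of the 10 markers was above 1 TPM in every library, so that the sums do not speak for the whole list.

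For Id3 and Id1 the calls at this step depended on the scaling. Id3 was at 61.8 and 80.2 TPM in DN3a (log2 fold change of 0.79 ± 0.25, SE, adjusted p = 0.0189 in limma) and Id1 at 2.78 and 12.2 TPM beside 1.16 to 2.43 TPM in DN2b (1.85 ± 0.69, adjusted p = 0.0411 in limma). Rescaled by TMM factors, the values were 0.55 for Id3 (adjusted p = 0.122 in limma) and 1.62 for Id1 (adjusted p = 0.0734 in limma). In all, the call of Id1 was lost in 9 settings. The call of Id3 was also lost without DN3a replicate 1, DN2b replicate 1 or 1 of the 2 DN2b libraries that carry number 2 (adjusted p = 0.0541 to 0.167 in limma), and that of Id1 without DN3a replicate 1 or either of these DN2b libraries (adjusted p = 0.0936 to 0.457 in limma).

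From DN3a to DN3b, across the checkpoint for the rearranged chain, Id3 was the only member called as higher. Called were 5 of 6 genes (all genes, 53.4%), 1 higher and 4 lower, and the median of all genes moved by -0.41 on the log2 scale. Id3 was at 179 and 255 TPM in DN3b, the highest level of any stage, and rose by 1.60 ± 0.27 (SE, 3.04-fold, adjusted p = 0.000223 in limma). Id2 fell to 3.92 and 6.65 TPM (log2 fold change of -2.28 ± 0.25, adjusted p = 4.72e-06 in limma), Tcf4 to 13.1 and 14.9 TPM (by 1.47 ± 0.23, adjusted p = 0.000129 in limma) and Tcf12 to 148 and 151 TPM (by 0.87 ± 0.22, adjusted p = 0.00402 in limma). Id1 was at 0 and 0.396 TPM and was called as lower (adjusted p = 0.000135 in limma). Tcf3 was not called, at 381 and 442 TPM beside 356 and 374 TPM in DN3a. The summed markers of innate lymphoid and NK cells were at 9.03 to 16.8 TPM in DN3b, with 4 of 10 at 0 in both libraries, beside 248 to 273 TPM in DN3a, and their part in the fall of Id2 was not tested. Id3 made up 96.2 to 98.5% of the Id transcripts in DN3b cells, as against 66.3 to 69.9% in DN3a cells and 7.76 to 10.8% in LMPPs.

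**Figure D5:**
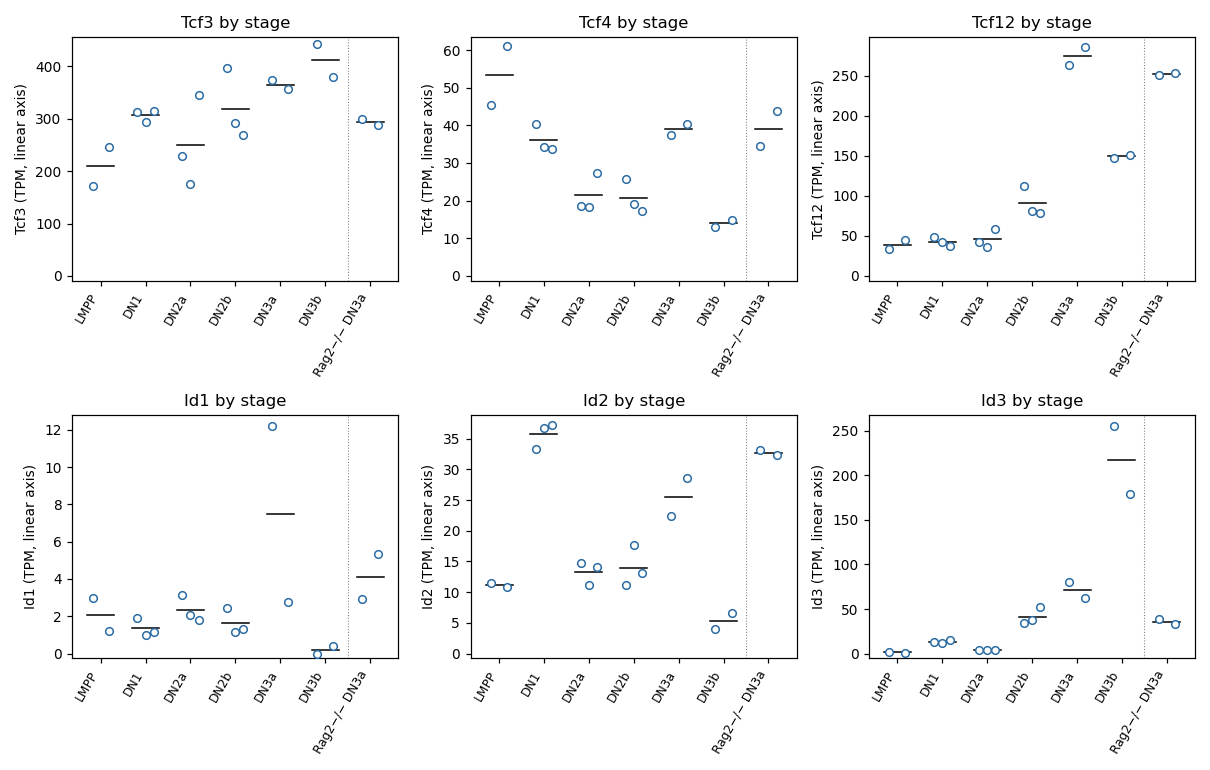
The 6 genes in every library of LMPPs, the thymocyte stages DN1 to DN3b and, right of the dotted line, Rag2−/− DN3a cells, in TPM on linear axes that start just below 0, with points for libraries and a line at the mean of each group. Tcf12 peaks at DN3a (263 and 286 TPM) and Id2 is highest in DN1 (33.3 to 37.2 TPM). Id3 is lowest in LMPPs (1.01 and 1.75 TPM), falls from DN1 to DN2a and is highest in DN3b (179 and 255 TPM).

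In order of mean level, Id3 was apart from its neighbour in 5 of 6 steps over the 7 lymphoid groups, with DN2b and Rag2−/− DN3a cells as the pair that overlapped, and spread 157-fold from LMPPs to DN3b. Tcf12 and Id2 were apart in 4 of 6 steps and spread 7.0-fold and 6.77-fold, and Tcf3 was apart in 1 of 6, with a spread of 1.97-fold.

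Genes of the T cell lineage known to respond to E proteins were mostly higher at the steps up to DN3a, except from DN1 to DN2a. They were mostly lower at the step to DN3b. Of 12 such genes 11 were found by name in the lymphoid samples, and Notch1 was not. In DN1 against LMPPs 9 of the 11 were higher and 0 lower (all genes, 6.73% higher). In DN2a against DN1 4 were higher and 1 lower (10.9% higher). In DN2b against DN2a 8 were higher and 0 lower (9.80% higher), and in DN3a against DN2b 7 higher and 0 lower (31.4% higher). Their medians were 3.02, 0.56, 1.84 and 2.44 on the log2 scale, beside -0.05, -0.18, 0.08 and 0.27 over all genes. In DN3b against DN3a 9 were lower and 0 higher (all genes, 39.2% lower), with a median of -2.28 beside -0.41. The calls with the largest changes at DN3a were the pre-T cell receptor chain Ptcra (6.72), the recombinase Rag1 (5.15), Cd3d (4.73), a chain of the T cell receptor complex, and the receptor Notch3 (3.19). At DN3b they were Notch3 (-3.11), Rag1 (-2.99), the Notch target Hes1 (-2.77) and Rag2 (-2.57). The regulators Egr1, Egr3 and Egr2 were higher in DN3a than in DN2b (5.16, 4.37 and 3.86), and Zbtb16 was lower (-4.39). Of the partners, Lmo2 fell at each of the 5 steps (-2.95, -3.22, -2.22, -2.96 and -0.86 on the log2 scale), as did Tal1 (-1.29, -0.61, -1.93, -3.29 and -2.03).

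Rag2−/− DN3a cells were compared with wild-type DN3a cells, since the former cannot form a rearranged receptor chain. Called was 1 of 6 genes (all genes, 26.4%), with the median of all genes at -0.18 on the log2 scale. Id3 was at 32.8 and 38.9 TPM in Rag2−/− cells and at 61.8 and 80.2 TPM in wild-type DN3a cells, without overlap, and fell by 0.98 ± 0.27 (SE, 1.97-fold, adjusted p = 0.0177 in limma). The call was lost with TMM factors (a fall of 0.80, adjusted p = 0.0633 in limma) and without DN3a replicate 1 or either Rag2−/− library (adjusted p = 0.0503 to 0.141 in limma). Tcf12 was at 251 and 254 TPM, Tcf4 at 34.5 and 43.8 TPM, Tcf3 at 288 and 299 TPM and Id2 at 32.3 and 33.1 TPM in Rag2−/− cells, and none of them passed the test. In the same comparison the regulators Egr1 (-5.54), Egr3 (-4.22) and Egr2 (-3.58) were lower on the log2 scale, together with Gfi1b (-1.78) and Smad7 (-1.04), so that 5 of 10 listed regulators were lower and 0 higher, beside 19.5% and 6.91% of all genes. Among the partners Lmo2 was higher (2.05) and Tal1 lower (-2.10).

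Over the 17 lymphoid samples the genes most like Tcf12 were Agfg2 (Pearson r of 0.988), Ralgps2 (0.986) and Sept1 (0.986), and those most like Id3 were Zap70 (0.985), the kinase of the T cell receptor, Snai3 (0.968) and Dusp10 (0.940). For Id2 they were Rhbdf2 (0.920), Arl4c (0.916) and Kdm5b (0.901), and for Tcf3 Maz (0.943), Sirt6 (0.943) and Tpp2 (0.929). For Tcf4 they included Casd1 (0.967) and Gnaq (0.967). The samples share stages, so that these values only describe shared patterns.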

How the data were processed

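RNA was measured in 31 libraries of Pax5 genotypes and in 17 libraries of LMPPs and thymocytes. The members and gene lists were chosen with earlier results of these data known. The authors trimmed reads to 50 nucleotides, aligned them to mm10 with STAR 2.4.2a, counted them per RefSeq gene with Rsubread and deposited TPM values, and for 2 libraries also the counts; whether strand was used is not given in the sources used here. The deposited lymphoid values, aligned by the authors with TopHat 1.4.1, are a signal in TPM with 2 entries per gene, whose difference is not given in the sources used here. Their mean was used. Entries of exactly 1 lie outside the totals and were read as 0. In 8 Pax5 files without gene names genes were assigned by row order. In the libraries with counts, zeros of counts and TPM matched on all 25579 rows, and the gene length implied by both was constant on 100% of 14405 rows.

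The tests covered every gene over 1 TPM in any library of the model, on log2(TPM + 0.1) with limma 3.58.1 (lmFit, eBayes with trend, two-sided, R 4.3.3), in models of 8 (central domains), 19 (C-terminal domains and ∆/∆, with read length as a term), 6 (Prd experiment), 25 (both experiments) and 17 samples (lymphoid). A call is a Benjamini-Hochberg adjusted p below 0.05. Intervals are at 95%. Fold changes on this scale understate those of genes near 0. The Pax5 TPM were whole multiples of 1 read for 100% of tested values (tolerance 0.02), and edgeR 4.0.16 and DESeq2 1.42.0 were run on the recovered reads. Within-group pairs of Pax5 libraries differed by a chi-square of at least 5.32 per gene, so that none was taken for a repeat deposit. The 13 lymphoid pairs, without counts, had identical values for at most 0.0105% of genes. The code was tested on simulated data. Named were the 6 members, the 3 genes most like each member with a mean above 5 TPM (highest Pearson r of log2(TPM + 0.1)) and, per list and comparison, up to 4 called genes with the largest change, with repeats across comparisons. Other genes named from these lists were chosen after their values were seen. RefSeq promoters of GRCm38.p6 gave the sequences. Alternatives were another pseudocount (1 or 0.01), no filter, no trend, TMM factors, a replicate block, the count tests, no read-length term, other models and leaving out each library. ATAC-seq and ChIP-seq data were not analysed here. Values of some named genes are not reported here.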

Additional observations from a re-analysis of the deposited data

How the results depend on the processing

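No called value of a member turned its direction under the alternatives run. Listed first are moves of the number of the 6 genes called by over 1.5 times or away from 0. Under DESeq2 this number changed to 1 in ∆OP/∆OP, 1 in ∆HD/∆HD, 4 in ∆CRD1/− and 1 in ∆CRD1,2/− against ∆/∆ cells. For ∆CRD1,2/− against ∆/∆ it was 1 with a replicate block, 2 without the read-length term and 1 in a model of 13 samples, in place of 0. For ∆/∆ against +/+ it was 3 without a filter and 3 without a trend, in place of 5. With TMM factors it was 4 for DN1 against LMPP, 3 for DN3a against DN2b and 0 for Rag2−/− against DN3a. EdgeR kept the count of members within 1.5 times in all 18 comparisons of Pax5 genotypes. Smaller moves included 4 in place of 5 for ∆/∆ against +/+ with edgeR and with DESeq2. DESeq2 also gave 3 in place of 2 for ∆CRD1,2/− against ∆CRD1/−. The cause was not tested. Leaving out 1 library at a time gave 3 to 5 calls for ∆/∆ against +/+, 1 to 1 for ∆CRD1,2/∆CRD1,2 against ∆CRD1/∆CRD1, 0 to 2 for Prd/∆ against ∆/∆, 3 to 4 for DN3a against DN2b and 0 to 1 for Rag2−/− against DN3a, and elsewhere moved the count by at most 1. The deviations of same-numbered replicates from their group means had a median r of -0.09 to 0.0473. In groups of 2 samples these deviations mirror each other, so that the values cannot decide whether the numbers pair the samples. Beside the change above, the replicate block ended the call of Id1 in DN3a against DN2b (adjusted p = 0.0518 in limma).

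The share of all genes called moved by over 1.5 times under at least 1 alternative in most comparisons of Pax5 genotypes. It ranged from 0.0769 to 7.42% in ∆OP/∆OP, from 0.231 to 3.60% in ∆HD/∆HD, from 0.416 to 4.18% in ∆OP,HD/∆OP,HD, from 0.513 to 2.39% in ∆CRD2/−, from 0.0833 to 0.504% in ∆CRD2/∆CRD2, from 6.81 to 17.3% in ∆CRD1/−, from 4.97 to 11.7% in ∆CRD1/∆CRD1, from 15.4 to 36.1% in ∆CRD1,2/− and from 15.2 to 34.5% in ∆CRD1,2/∆CRD1,2 against +/+ cells. It ranged from 2.02 to 19.2% in ∆CRD1,2/− against ∆/∆, from 1.97 to 6.27% and from 0.779 to 13.3% in the step from ∆CRD1 to ∆CRD1,2 in hemizygotes and homozygotes, and from 0.410 to 7.92% in Prd/∆ against ∆/∆. With 2 samples in most groups the precision is that of the intervals given. Id1 rests on few reads, and the lymphoid depth is not known.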
